A study of Homo sapiens with 12 samples.

Results

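The genes described here belong to a pair of linked stress programmes: the ATF4 programme of amino acid supply, and the unfolded protein response of the endoplasmic reticulum (ER). They number 38 and are grouped by their known function. The list was chosen with earlier results of these data known, so counts of these genes set beside all genes are descriptions. Each gene was read from a probe set that carries 1 gene symbol, and where it had several such probe sets, from the one with the highest mean over the 12 arrays. All 38 of 38 genes were measured, among 17958 genes in all. They comprise 14 genes of amino acid synthesis and transport, 9 stress regulators and effectors, 4 regulators of the unfolded protein response and of ER-associated degradation, and 11 ER chaperones and folding enzymes.

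RNA came from BT549, a human breast cancer line of the triple-negative class, that is without hormone receptors or amplified HER2. The cells carried a pool of siRNAs against c-Jun or a control siRNA for 72 hours, and then received TNFα, an inflammatory cytokine, or vehicle for 6 hours. The 4 groups were c-Jun siRNA with TNFα, c-Jun siRNA with vehicle, control siRNA with TNFα and control siRNA with vehicle, with 3 Affymetrix arrays each. All groups are of the same line in medium with serum, and none was left untransfected. c-Jun pairs with Fos and ATF family proteins to form AP-1, and the design sets the TNFα response without full c-Jun levels against the response with them.

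Values are log2 expression per probe set, with array medians of 5.62 to 5.68. JUN itself averaged 10.36 ± 0.032 in c-Jun siRNA TNFα arrays, against 11.07 ± 0.041 in control siRNA TNFα arrays, and 9.83 ± 0.021 in c-Jun siRNA vehicle arrays, against 10.35 ± 0.0052 in control siRNA vehicle arrays (SD, n = 3 each). TNFAIP3, an NF-κB target, averaged 10.91 ± 0.071 with TNFα and 7.67 ± 0.090 with vehicle under c-Jun siRNA, and 11.15 ± 0.035 with TNFα and 6.78 ± 0.10 with vehicle under control siRNA. NFKBIA, another NF-κB target, averaged 12.59 with TNFα and 10.77 with vehicle under c-Jun siRNA, and 12.60 with TNFα and 9.50 with vehicle under control siRNA. The 6 mesenchymal markers of the line (VIM, FN1, CDH2, ZEB1, AXL and CAV1) averaged 9.78 to 13.00, and ESR1, PGR, EPCAM and CDH1 averaged 4.38, 3.72, 4.20 and 4.87. GATA3 averaged 8.46 and ERBB2 8.81. The 3 leukocyte and 3 endothelial markers averaged 3.81 to 4.73. The array name of c-Jun siRNA TNFα replicate 3 reads as a second run of replicate 1. The SD of the difference between those arrays over all genes was 0.121, against 0.119 to 0.142 for the other pairs of arrays within a group. Whether replicates came from separate cultures is not labelled, so the p-values reflect variation among these arrays, which may be technical.

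ATF4 is a transcription factor whose mRNA is translated preferentially when the initiation factor eIF2α is phosphorylated, the core step of the integrated stress response. Kinases that sense amino acid shortage, ER stress, double-stranded RNA or haem shortage all act on eIF2α, and ATF4 then switches on amino acid synthesis and uptake. The unfolded protein response adds the transcription factors ATF6 and XBP1, which raise chaperones that fold proteins in the ER. In breast cancer cells the ATF4 arm is best known for sustaining serine synthesis and cystine uptake under nutrient stress.

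The promoters of these genes were searched for the elements that ATF4, ATF6 and XBP1 are known to bind. Windows of 250 bases before to 50 bases after a gene's start, from RefSeq on GRCh38.p14, matched 34 of the 38 genes; PSPH, SLC7A11, PYCR1 and SHMT2 were not matched. The C/EBP-ATF response element (CARE, TGATGNAA) and the ER stress elements (ERSE, which is CCAAT, any 9 bases, then CCACG, and ERSE-II, which is ATTGG, any 1 base, then CCACG) were searched on both strands. The stretches below carry these elements in capitals, the amino acid and CHAC1 sites first and the chaperone and XBP1 sites after them, each written 5′ to 3′ on the gene's own strand.
ASNS (asparagine synthetase), CARE, chr7:97872449-97872496, minus strand: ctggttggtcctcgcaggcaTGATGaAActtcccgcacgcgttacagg
SLC1A5 (glutamine transporter), CARE, chr19:46784884-46784931, minus strand: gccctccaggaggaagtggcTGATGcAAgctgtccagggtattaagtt
CHAC1 (glutathione-degrading enzyme), CARE on the opposite strand, chr15:40953242-40953289, plus strand: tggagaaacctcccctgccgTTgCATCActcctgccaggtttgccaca
HSPA5 (the ER chaperone BiP), ERSE, chr9:125241371-125241429, minus strand: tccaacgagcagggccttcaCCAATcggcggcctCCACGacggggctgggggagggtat
PDIA6 (disulfide isomerase), ERSE, chr2:10812833-10812891, minus strand: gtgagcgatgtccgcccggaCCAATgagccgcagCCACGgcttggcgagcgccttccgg
SDF2L1 (BiP cofactor), ERSE-II on the opposite strand, chr22:21642094-21642144, plus strand: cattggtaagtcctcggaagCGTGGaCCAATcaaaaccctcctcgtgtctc
XBP1 (transcription factor), ERSE, chr22:28800583-28800641, minus strand: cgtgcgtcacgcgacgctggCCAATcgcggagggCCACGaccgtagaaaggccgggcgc
HERPUD1 (ER-associated degradation), ERSE-II, chr16:56932005-56932055, plus strand: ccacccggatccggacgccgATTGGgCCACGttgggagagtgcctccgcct

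An ERSE or ERSE-II was present in 8 of 11 ER chaperone promoters (72.7%) and in 2 of the 4 unfolded protein response regulators, XBP1 and HERPUD1. None was found in the 10 amino acid genes or the 9 stress genes with a window, against 44 of all 27305 genes with a window (0.161%). CARE was present in ASNS, SLC3A2, SLC1A4, SLC1A5, CHAC1 and HERPUD1, 6 of 34 genes, against 4.457% of all genes. In SLC3A2 it lay after the start and in SLC1A4 it spanned the start. Other elements were searched in the same windows on both strands. The unfolded protein response element TGACGTGG was present in ALDH18A1 and HYOU1, where it overlaps an ERSE-II, and in 0.927% of all genes. The cAMP response element TGACGTCA was present in PPP1R15A and in 2.249% of all genes. The AP-1 element TGANTCA was present in SLC3A2, ATF5, DDIT3 and HSPA5, 4 of 34 genes (11.8%), against 9.368% of all genes. These matches describe letters in a fixed window and not bound sites.

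**Figure D1:**
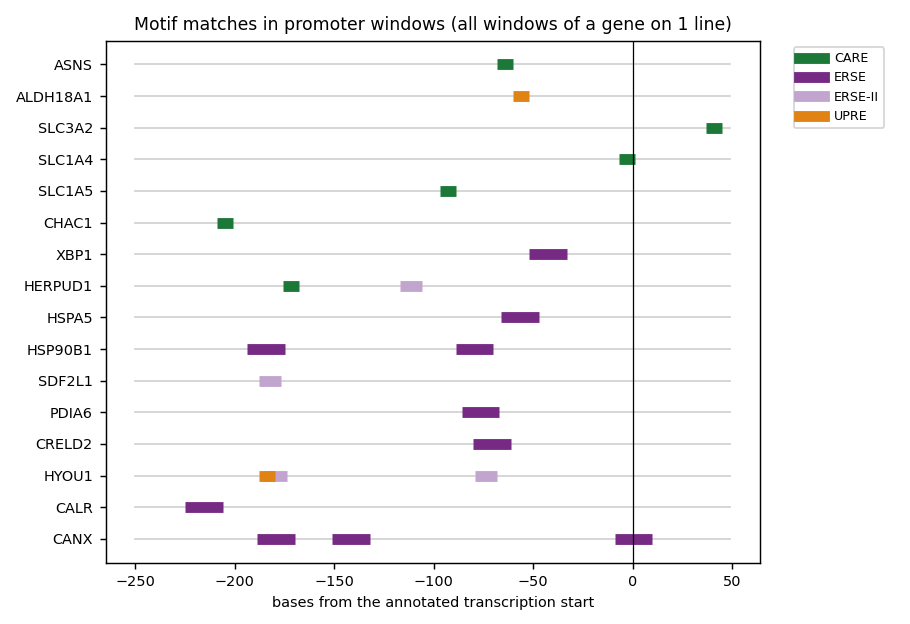
Motif matches in the promoter windows, by gene (vertical axis) and distance from the gene's start in bases (horizontal axis); each coloured bar is a match and its colour the motif, and the 4 motifs drawn are CARE, ERSE, ERSE-II and the unfolded protein response element (UPRE). ER stress elements lie in 8 of 11 ER chaperones and in XBP1 and HERPUD1, and the CARE matches lie in 4 amino acid genes, CHAC1 and HERPUD1.

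Under c-Jun siRNA most of these genes were higher, whether the cells had TNFα or vehicle. With TNFα present, 29 of 38 genes were higher and 2 lower than with control siRNA, where 14.1% of all genes were higher and 14.4% lower. With vehicle, 27 were higher and 3 lower, where 14.4% of all genes were higher and 14.5% lower. The median log2 difference of the 38 genes was 0.21 with TNFα and 0.20 with vehicle, against 0.0011 and -0.0073 over all genes. Differences come from limma fitted across all genes, and a gene counts as higher or lower at a Benjamini-Hochberg adjusted p under 0.05. After centring on array medians, 30 of the 38 genes were higher and 2 lower with vehicle. Of all 17958 genes, 3018 (16.8%) were then higher and 1913 lower. The higher share of the called genes alone was 61.2% after centring, against 49.8% as deposited. Of the 6 luminal and epithelial markers, CDH1 was higher under c-Jun siRNA by 0.95 ± 0.090 with TNFα and 0.55 ± 0.090 with vehicle and GATA3 by 0.28 ± 0.067 and 0.19 ± 0.067, while no leukocyte or endothelial marker was called. Of the 6 mesenchymal markers, FN1 was lower by -0.60 ± 0.029 with TNFα and -0.45 ± 0.029 with vehicle, and AXL higher by 0.39 ± 0.031 and 0.425 ± 0.031. ZEB1 (-0.27), CDH2 (-0.14) and VIM (-0.11) were lower with vehicle and were not called with TNFα, and CAV1 was called in neither. Their part in the differences below was not tested. In RNA from whole cultures, fewer expressing cells and less RNA per cell cannot be told apart.

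**Figure D2:**
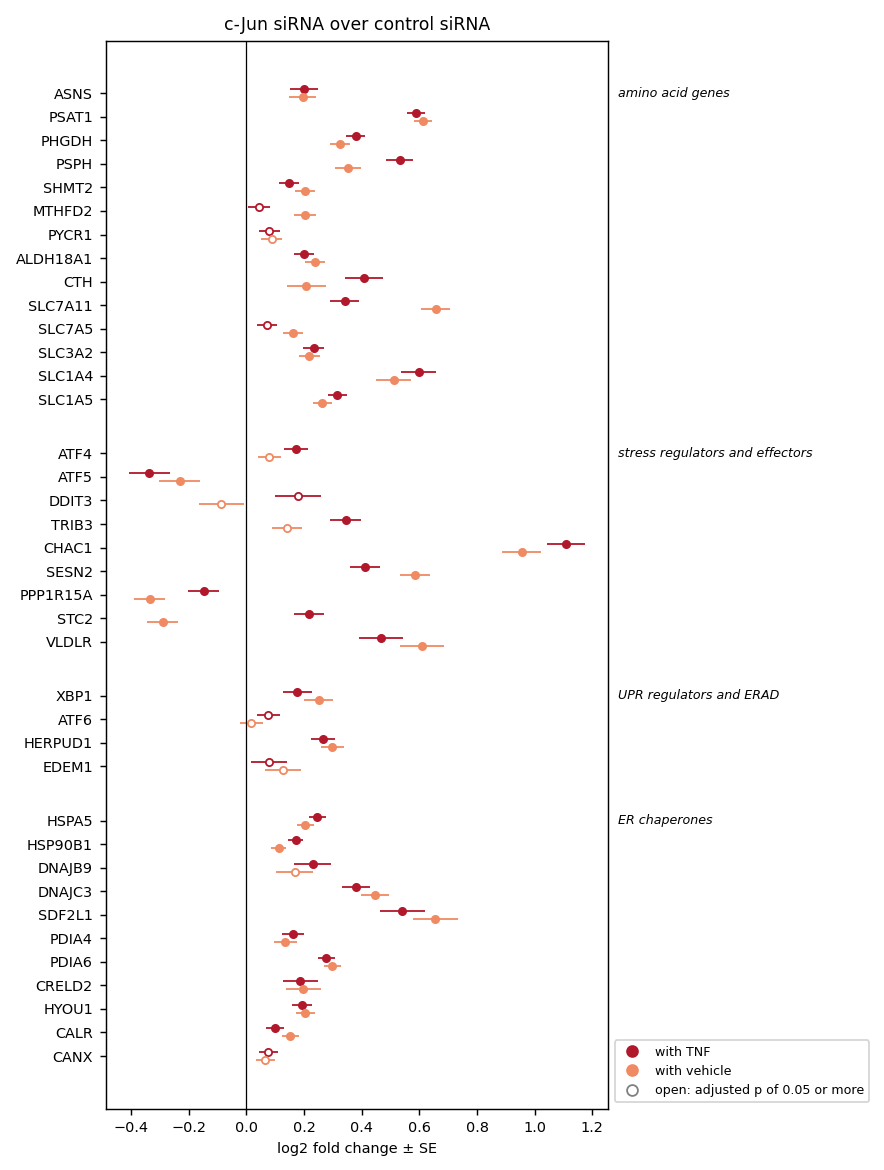
Log2 difference of c-Jun siRNA over control siRNA (horizontal axis, point ± SE) for each of the 38 genes, with TNFα and with vehicle; filled points are called at an adjusted p under 0.05 and open points are not. Amino acid genes and ER chaperones lie to the right of 0, and ATF5 and PPP1R15A to the left.

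Of the 14 amino acid genes, 11 were higher under c-Jun siRNA with TNFα and 13 with vehicle, against 14.1% and 14.4% of all genes. None was lower, against 14.4% and 14.5% of all genes. The 3 arrays of c-Jun siRNA all lay above the 3 of control siRNA for 12 of the 14 genes with TNFα and for all 14 with vehicle. How many of all genes were separated in this way was not counted. PSAT1, the aminotransferase of serine synthesis, had the largest differences of the synthesis genes. It read 11.03, 11.05 and 11.10 in c-Jun siRNA TNFα arrays, against 10.44, 10.48 and 10.49 in control siRNA TNFα arrays. In vehicle arrays it read 11.24, 11.26 and 11.30 with c-Jun siRNA, against 10.64, 10.65 and 10.68 with control siRNA. The groups did not overlap, and PSAT1 was higher by 0.59 ± 0.031 with TNFα (adjusted p = 6.9e-11) and by 0.61 ± 0.031 with vehicle (adjusted p = 3.2e-11).

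PSPH, the phosphatase that makes serine in the last step, read 8.29, 8.30 and 8.31 in c-Jun siRNA TNFα arrays, against 7.75, 7.78 and 7.79 in control siRNA TNFα arrays. With vehicle it read 8.66, 8.70 and 8.81 under c-Jun siRNA, against 8.34, 8.38 and 8.40 under control siRNA. It rose by 0.53 ± 0.046 with TNFα (adjusted p = 5.6e-08) and by 0.35 ± 0.046 with vehicle (adjusted p = 8.7e-06), with no overlap. PHGDH, which commits glucose carbon to serine, was higher by 0.38 ± 0.034 with TNFα and 0.32 ± 0.034 with vehicle. The mitochondrial one-carbon enzyme SHMT2 was higher by 0.15 with TNFα and 0.20 with vehicle. The next enzyme in that path, MTHFD2, was higher with vehicle by 0.20 ± 0.039 (adjusted p = 0.0005), and differed by 0.04 ± 0.039 with TNFα (adjusted p = 0.50). The test of the difference between these values did not call it (-0.16 ± 0.055, adjusted p = 0.12).

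The other synthesis genes make asparagine, proline and cysteine. ASNS, which makes asparagine and carries the CARE printed above, was higher by 0.20 ± 0.048 with TNFα (adjusted p = 0.0036) and 0.19 ± 0.048 with vehicle (adjusted p = 0.0041). ALDH18A1, the first enzyme of proline synthesis, was higher by 0.20 with TNFα and 0.24 with vehicle. PYCR1, the last enzyme of that path, differed by 0.08 (adjusted p = 0.13) and 0.09 (adjusted p = 0.086). CTH, which makes cysteine from cystathionine, was higher by 0.41 ± 0.067 with TNFα (adjusted p = 0.00011) and by 0.21 ± 0.067 with vehicle (adjusted p = 0.026). The CTH call with vehicle was not kept without control siRNA vehicle replicate 1 or 2 or c-Jun siRNA vehicle replicate 1 or 3, with differences of 0.18 to 0.21 and adjusted p of 0.066 to 0.0996. With the position column of the array names, read here as a plate column, as a term in the vehicle comparison, CTH differed by 0.12 (adjusted p = 0.41) and ASNS by 0.17 (adjusted p = 0.13). All 3 c-Jun siRNA vehicle arrays carried column 5, against 1 of the 3 control siRNA vehicle arrays. With that term 22 of the 38 genes were higher and 2 lower, in place of 27 and 3. The term was 1 of 14 alternatives that left out no array. Over these, all genes called with vehicle ran from 1749 to 3018 higher and from 1699 to 2731 lower. The main fit called 2583 and 2600 of 17958.

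The transporters rose as well. SLC1A4, a neutral amino acid carrier for serine and alanine, read 8.11, 8.11 and 8.16 in c-Jun siRNA TNFα arrays, against 7.46, 7.55 and 7.58 in control siRNA TNFα arrays. With vehicle it read 8.28, 8.42 and 8.44 under c-Jun siRNA, against 7.75, 7.90 and 7.96 under control siRNA. These groups were separate, with differences of 0.60 ± 0.061 with TNFα (adjusted p = 4.5e-07) and 0.51 ± 0.061 with vehicle (adjusted p = 2.9e-06). SLC1A5, the main glutamine transporter, was higher by 0.32 with TNFα and 0.26 with vehicle. SLC3A2, the heavy chain shared by several exchangers, was higher by 0.23 and 0.22. SLC7A5, the large neutral amino acid carrier that pairs with it, was higher by 0.16 ± 0.035 with vehicle (adjusted p = 0.0015) and differed by 0.07 with TNFα (adjusted p = 0.16).

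Among the 9 stress regulators and effectors, 6 were higher and 2 lower under c-Jun siRNA with TNFα, against 14.1% and 14.4% of all genes. With vehicle, 3 were higher and 3 lower, against 14.4% and 14.5% of all genes. CHAC1, an ATF4 and CHOP target that degrades glutathione, had the largest difference of the 38 genes. It read 8.58, 8.64 and 8.75 in c-Jun siRNA TNFα arrays, against 7.39, 7.61 and 7.65 in control siRNA TNFα arrays. In vehicle arrays it read 8.91, 8.93 and 9.09 with c-Jun siRNA, against 8.01, 8.01 and 8.03 with control siRNA. All c-Jun siRNA arrays lay above all control siRNA arrays, by 1.11 ± 0.067 with TNFα (2.16-fold, adjusted p = 4.6e-10) and 0.95 ± 0.067 with vehicle (1.94-fold, adjusted p = 3.0e-09). SESN2, which restrains mTORC1 when leucine is short, was higher by 0.41 ± 0.051 with TNFα and 0.59 ± 0.051 with vehicle. VLDLR, a lipoprotein receptor induced through ATF4, was higher by 0.47 ± 0.077 and 0.61 ± 0.077.

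ATF4 mRNA itself differed less. It read 11.28, 11.30 and 11.39 in c-Jun siRNA TNFα arrays, against 11.14, 11.15 and 11.17 in control siRNA TNFα arrays, and was higher by 0.17 ± 0.041 (adjusted p = 0.0035). With vehicle it read 11.25, 11.30 and 11.43 under c-Jun siRNA, against 11.20, 11.25 and 11.28 under control siRNA, and these arrays overlapped (0.08 ± 0.041, adjusted p = 0.18). TRIB3, a pseudokinase that feeds back on ATF4, was higher by 0.34 ± 0.053 with TNFα (adjusted p = 5.7e-05) and differed by 0.14 ± 0.053 with vehicle (adjusted p = 0.055). DDIT3, which encodes CHOP, differed by 0.18 ± 0.080 with TNFα (adjusted p = 0.11) and by -0.09 ± 0.080 with vehicle (adjusted p = 0.50). ATF5, a relative of ATF4, was lower, by -0.34 ± 0.071 with TNFα (adjusted p = 0.0013) and by -0.23 ± 0.071 with vehicle (adjusted p = 0.020). PPP1R15A, the GADD34 subunit that directs dephosphorylation of eIF2α, was lower by -0.34 ± 0.053 with vehicle (adjusted p = 7.3e-05) and by -0.15 ± 0.053 with TNFα (adjusted p = 0.045).

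Both of the smaller falls depended on single arrays. The ATF5 call with vehicle was not kept without control siRNA vehicle replicate 1 or 3 or c-Jun siRNA vehicle replicate 1 or 3 (adjusted p of 0.052 to 0.13), nor with the position column as a term (-0.24, adjusted p = 0.10). The PPP1R15A call with TNFα was not kept without any 1 of the 3 control siRNA TNFα arrays or without c-Jun siRNA TNFα replicate 2 (adjusted p of 0.063 to 0.23).

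ER chaperones also rose under c-Jun siRNA, 10 of 11 with TNFα and 9 of 11 with vehicle, against 14.1% and 14.4% of all genes. None fell, against 14.4% and 14.5% of all genes. Most changes were small in size. SDF2L1, a cofactor of BiP and its J proteins, read 7.42, 7.66 and 7.75 in c-Jun siRNA TNFα arrays, against 7.02, 7.04 and 7.15 in control siRNA TNFα arrays. With vehicle it read 7.51, 7.65 and 7.67 under c-Jun siRNA, against 6.87, 6.96 and 7.03 under control siRNA. It had the largest differences of the chaperones, 0.54 ± 0.079 with TNFα (adjusted p = 3.0e-05) and 0.65 ± 0.079 with vehicle (adjusted p = 3.1e-06). DNAJC3, a J protein that also inhibits eIF2α kinases, was higher by 0.38 ± 0.049 with TNFα and 0.45 ± 0.049 with vehicle.

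HSPA5, which encodes BiP, the chief ER chaperone, read 12.44, 12.45 and 12.46 in c-Jun siRNA TNFα arrays, against 12.19, 12.19 and 12.23 in control siRNA TNFα arrays. With vehicle it read 12.44, 12.46 and 12.54 under c-Jun siRNA, against 12.25, 12.28 and 12.30 under control siRNA. The groups were separate by a small margin that exceeded the array spread, 0.25 ± 0.029 with TNFα (adjusted p = 2.9e-06) and 0.20 ± 0.029 with vehicle (adjusted p = 2.4e-05). HSP90B1, the ER form of HSP90, was higher by 0.17 and 0.11. PDIA6, a disulfide isomerase, was higher by 0.28 ± 0.029 with TNFα and 0.30 ± 0.029 with vehicle. PDIA4, HYOU1, CRELD2 and CALR, a disulfide isomerase, a large HSP70 relative, a secreted folding factor and a lectin chaperone, were higher by 0.10 to 0.19 with TNFα and by 0.14 to 0.20 with vehicle. DNAJB9, a J protein that represses the sensor IRE1, was higher by 0.23 ± 0.064 with TNFα (adjusted p = 0.010) and differed by 0.17 ± 0.064 with vehicle (adjusted p = 0.060). CANX, a lectin chaperone whose promoter also holds an ERSE, differed by 0.08 with TNFα (adjusted p = 0.095) and 0.07 with vehicle (adjusted p = 0.15).

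Some calls did not survive the loss of 1 array. With TNFα, CRELD2 was not called without c-Jun siRNA replicate 1 or 3 or control siRNA replicate 2 or 3, CALR without c-Jun siRNA replicate 1 or 3 or control siRNA replicate 2, and DNAJB9 without c-Jun siRNA replicate 1, with adjusted p of 0.064 to 0.15. With vehicle, CRELD2 was not called without c-Jun siRNA replicate 1 or 2 or control siRNA replicate 2 or 3, and PDIA4 without c-Jun siRNA replicate 1 or control siRNA replicate 1 or 2, with adjusted p of 0.0503 to 0.071. With the position column as a term, PDIA4 with vehicle differed by 0.06 (adjusted p = 0.42), CALR by 0.10 (adjusted p = 0.10) and CRELD2 by 0.23 (adjusted p = 0.059), and CRELD2 with TNFα by 0.15 (adjusted p = 0.085). With c-Jun siRNA TNFα replicates 1 and 3 averaged as 1 sample, CRELD2 with TNFα differed by 0.16 (adjusted p = 0.090) and CALR by 0.09 (adjusted p = 0.066). Other genes that were not called with all arrays were called when 1 array was left out. With TNFα these were DDIT3 without c-Jun siRNA replicate 2 or control siRNA replicate 1 (0.25 in each), CANX without control siRNA replicate 1 (0.11) and SLC7A5 without c-Jun siRNA replicate 2 (0.10). With vehicle they were DNAJB9 without c-Jun siRNA replicate 2 (0.20), TRIB3 without control siRNA replicate 2 (0.18), and PYCR1 (0.12) and EDEM1 (0.19) without control siRNA replicate 3.

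XBP1, the transcription factor spliced by IRE1, read 10.37, 10.49 and 10.60 in c-Jun siRNA TNFα arrays, against 10.29, 10.32 and 10.32 in control siRNA TNFα arrays. With vehicle it read 9.92, 9.96 and 10.03 under c-Jun siRNA, against 9.66, 9.69 and 9.80 under control siRNA. It was higher by 0.18 ± 0.050 with TNFα (adjusted p = 0.011) and by 0.25 ± 0.050 with vehicle (adjusted p = 0.00072), a probe set signal that does not part spliced from unspliced mRNA. Without c-Jun siRNA TNFα replicate 1 the difference with TNFα was 0.12 (adjusted p = 0.080), and with the position column as a term the difference with vehicle was 0.17 (adjusted p = 0.066). HERPUD1, part of the complex that removes misfolded proteins from the ER, was higher by 0.27 ± 0.041 with TNFα and 0.30 ± 0.041 with vehicle. EDEM1, which marks misfolded glycoproteins for degradation, differed by 0.08 and 0.13, and ATF6, a stress sensor of the ER membrane, by 0.08 and 0.02, none of them called.

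TNFα itself gave a mixed picture, with falls in the amino acid and stress genes and few changes in the chaperones. Under c-Jun siRNA, 6 of 38 genes were higher and 13 lower with TNFα than with vehicle, where 11.3% of all genes were higher and 18.3% lower. Under control siRNA, 7 were higher and 14 lower, where 13.8% of all genes were higher and 21.9% lower. The median log2 difference of the 38 genes was -0.03 under c-Jun siRNA and -0.06 under control siRNA, against -0.0157 and -0.0232 over all genes. The marker GATA3 was lower with TNFα by -1.24 ± 0.067 under c-Jun siRNA and -1.33 ± 0.067 under control siRNA, ZEB1 by -0.15 and -0.38, and FN1 was higher by 0.20 and 0.36. Under c-Jun siRNA CDH1 (0.48), VIM (0.11) and CAV1 (0.08) were higher and ERBB2 (-0.17) lower, and under control siRNA CDH2 (-0.14) and the leukocyte marker CD14 (-0.30, adjusted p = 0.025) were lower. The other markers were not called, and the part of these markers in the results was not tested.

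**Figure D3:**
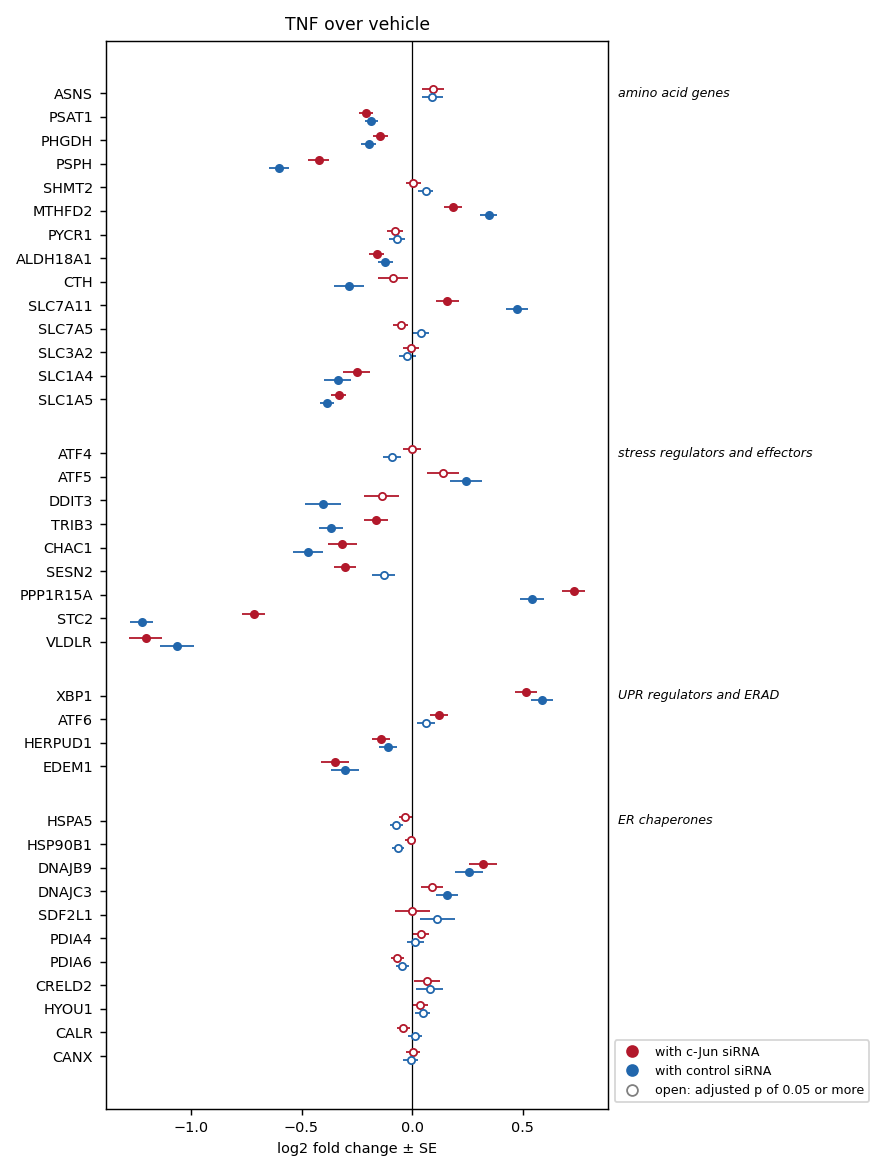
Log2 difference of TNFα over vehicle (horizontal axis, point ± SE) for each of the 38 genes, under c-Jun siRNA and under control siRNA; filled points are called at an adjusted p under 0.05 and open points are not. VLDLR and STC2 lie farthest to the left, PPP1R15A and XBP1 farthest to the right, and most ER chaperones lie near 0.

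Among the 14 amino acid genes, 2 were higher and 6 lower with TNFα under c-Jun siRNA, against 11.3% and 18.3% of all genes. Under control siRNA, 2 were higher and 7 lower, against 13.8% and 21.9% of all genes. PSPH was the lowest, by -0.42 ± 0.046 under c-Jun siRNA (adjusted p = 7.8e-07) and -0.60 ± 0.046 under control siRNA (adjusted p = 5.2e-09), and its arrays printed above did not overlap between TNFα and vehicle. SLC1A5 was lower by -0.33 ± 0.033 and -0.38 ± 0.033, and SLC1A4 by -0.25 ± 0.061 and -0.34 ± 0.061. PSAT1, PHGDH and ALDH18A1 were lower by -0.21 to -0.14 under c-Jun siRNA and by -0.20 to -0.12 under control siRNA. CTH was lower by -0.29 ± 0.067 under control siRNA (adjusted p = 0.0023) and differed by -0.09 ± 0.067 under c-Jun siRNA (adjusted p = 0.41). ASNS, SHMT2, PYCR1, SLC7A5 and SLC3A2 were not called, with differences of -0.08 to 0.09 under c-Jun siRNA and -0.07 to 0.09 under control siRNA.

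MTHFD2 and SLC7A11 went the other way. MTHFD2, the mitochondrial folate enzyme, read 10.88, 10.96 and 11.05 with TNFα, against 10.76, 10.79 and 10.79 with vehicle, under c-Jun siRNA. Under control siRNA it read 10.86, 10.94 and 10.96 with TNFα, against 10.57, 10.58 and 10.58 with vehicle. It rose by 0.19 ± 0.039 under c-Jun siRNA (adjusted p = 0.0011) and 0.35 ± 0.039 under control siRNA (adjusted p = 9.2e-07), with no overlap in either.

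The 9 stress regulators and effectors held the largest TNFα differences. Under c-Jun siRNA, 1 was higher and 5 lower, against 11.3% and 18.3% of all genes. Under control siRNA, 2 were higher and 5 lower, against 13.8% and 21.9% of all genes. VLDLR read 7.26, 7.56 and 7.58 with TNFα, against 8.59, 8.63 and 8.79 with vehicle, under c-Jun siRNA. Under control siRNA it read 6.93, 6.99 and 7.07 with TNFα, against 8.04, 8.04 and 8.11 with vehicle. It fell by 1.21 ± 0.077 under c-Jun siRNA (adjusted p = 4.8e-10) and by 1.06 ± 0.077 under control siRNA (adjusted p = 2.1e-09), with wide gaps between the groups. CHAC1 was lower by -0.32 ± 0.067 under c-Jun siRNA and -0.47 ± 0.067 under control siRNA, and TRIB3 by -0.16 ± 0.053 and -0.37 ± 0.053. SESN2 was lower by -0.30 ± 0.051 under c-Jun siRNA (adjusted p = 0.00013) and differed by -0.13 ± 0.051 under control siRNA (adjusted p = 0.060). DDIT3 was lower by -0.40 ± 0.080 under control siRNA (adjusted p = 0.00049) and differed by -0.14 ± 0.080 under c-Jun siRNA (adjusted p = 0.24).

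PPP1R15A rose with TNFα. It read 9.15, 9.30 and 9.31 with TNFα, against 8.43, 8.54 and 8.60 with vehicle, under c-Jun siRNA. Under control siRNA it read 9.37, 9.38 and 9.46 with TNFα, against 8.79, 8.89 and 8.90 with vehicle. The rises were 0.73 ± 0.053 under c-Jun siRNA (adjusted p = 3.3e-09) and 0.54 ± 0.053 under control siRNA (adjusted p = 1.5e-07), and the test of their difference did not call it (0.19 ± 0.075, adjusted p = 0.19). ATF5 rose by 0.24 ± 0.071 under control siRNA (adjusted p = 0.011) and differed by 0.14 ± 0.071 under c-Jun siRNA (adjusted p = 0.17). ATF4 differed by 0.00 ± 0.041 under c-Jun siRNA and -0.09 ± 0.041 under control siRNA, neither called.

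XBP1 was the unfolded protein response gene that moved most with TNFα, by 0.51 ± 0.050 under c-Jun siRNA (adjusted p = 1.8e-07) and 0.59 ± 0.050 under control siRNA (adjusted p = 2.2e-08). EDEM1 was lower by -0.35 ± 0.063 and -0.30 ± 0.063, and HERPUD1 by -0.14 ± 0.041 and -0.11 ± 0.041. ATF6 was higher by 0.12 ± 0.041 under c-Jun siRNA (adjusted p = 0.029) and differed by 0.06 under control siRNA (adjusted p = 0.27). Its TNFα and vehicle arrays under c-Jun siRNA overlapped. The call was not kept after centring on array medians (0.09, adjusted p = 0.17). Nor was it kept with quantile normalisation, a floor on low values, no mean-variance trend or the compared groups alone (adjusted p of 0.051 to 0.085). Of the 11 ER chaperones, 1 was higher under c-Jun siRNA, against 11.3% of all genes, and 2 under control siRNA, against 13.8%. None was lower, against 18.3% and 21.9% of all genes. DNAJB9 read 7.51, 7.55 and 7.73 with TNFα, against 7.20, 7.28 and 7.34 with vehicle, under c-Jun siRNA, and was higher by 0.32 ± 0.064 (adjusted p = 0.00067). Under control siRNA it read 7.34, 7.37 and 7.38 with TNFα, against 7.04, 7.13 and 7.14 with vehicle, and was higher by 0.26 ± 0.064 (adjusted p = 0.0035). DNAJC3 was higher by 0.16 ± 0.049 under control siRNA (adjusted p = 0.017) and differed by 0.09 under c-Jun siRNA (adjusted p = 0.20). The other 9 chaperones differed by -0.07 to 0.07 under c-Jun siRNA and by -0.07 to 0.11 under control siRNA, HSPA5 by -0.03 ± 0.029 and -0.07 ± 0.029 (adjusted p = 0.53 and 0.067).

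The weaker TNFα calls depended on single arrays, and under c-Jun siRNA further calls depended on the position column. Under control siRNA, HERPUD1 was not called when any 1 of 5 arrays was left out, ATF5 without TNFα replicate 1 or vehicle replicate 2, DNAJC3 without TNFα replicate 2 or vehicle replicate 1, and ALDH18A1 without vehicle replicate 2 (adjusted p of 0.052 to 0.18). Under c-Jun siRNA, SLC7A11, TRIB3 and ATF6 were each not called without TNFα replicate 1 and without vehicle replicate 1 or 2, and HERPUD1 without TNFα replicate 2 or 3 or vehicle replicate 2 (adjusted p of 0.053 to 0.15). SLC7A11 and TRIB3 were also not called without TNFα replicate 2, nor ATF6 without TNFα replicate 3 or with TNFα replicates 1 and 3 averaged (0.10, adjusted p = 0.10). Genes not called with all arrays were called with 1 left out: SESN2 under control siRNA without TNFα replicate 1 (-0.18) and HSP90B1 without vehicle replicate 3 (-0.08). Under c-Jun siRNA these were PDIA6 without TNFα replicate 2 (-0.09), and ATF5 (0.23) and DDIT3 (-0.22) without vehicle replicate 2. Under c-Jun siRNA no position column held both TNFα and vehicle arrays, and with the column as a term 2 genes were higher and 7 lower in place of 6 and 13. The rises of MTHFD2, SLC7A11, DNAJB9 and ATF6 were then not called. Nor were the falls of PHGDH, ALDH18A1, SLC1A4, SESN2, EDEM1 and HERPUD1 (adjusted p of 0.056 to 0.48 for all these genes). This term was 1 of 14 alternatives that left out no array. Over these, calls among all 17958 genes fell as low as 1051 higher and 1325 lower, against 2036 and 3284 in the main fit.

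The test of whether the TNFα response differed between the siRNAs called 1 of the 38 genes higher and 1 lower, where 1.88% of all genes were higher and 3.59% lower. STC2, which encodes a secreted glycoprotein of the stress response, read 8.55, 8.74 and 8.80 with TNFα, against 9.35, 9.41 and 9.48 with vehicle, under c-Jun siRNA. Under control siRNA it read 8.45, 8.49 and 8.50 with TNFα, against 9.70, 9.70 and 9.71 with vehicle. It fell by 0.72 ± 0.053 under c-Jun siRNA (adjusted p = 3.7e-09) and by 1.22 ± 0.053 under control siRNA (adjusted p = 1.4e-12), and the falls differed by 0.51 ± 0.074 (adjusted p = 0.00023). Read the other way, STC2 was higher under c-Jun siRNA with TNFα (0.22 ± 0.053, adjusted p = 0.0040) and lower with vehicle (-0.29 ± 0.053, adjusted p = 0.00029).

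SLC7A11, the light chain of the cystine-glutamate exchanger, read 10.16, 10.23 and 10.26 with TNFα, against 10.00, 10.04 and 10.13 with vehicle, under c-Jun siRNA. Under control siRNA it read 9.80, 9.89 and 9.93 with TNFα, against 9.34, 9.35 and 9.52 with vehicle. The rise was 0.16 ± 0.051 under c-Jun siRNA (adjusted p = 0.024) and 0.48 ± 0.051 under control siRNA (adjusted p = 4.8e-07), a difference of -0.32 ± 0.072 (adjusted p = 0.012). c-Jun siRNA raised it by 0.34 ± 0.051 with TNFα and by 0.66 ± 0.051 with vehicle. With values below a log2 level of 4 set to 4, or with no mean-variance trend, the difference was not called (adjusted p = 0.074 and 0.061). The other 36 genes were not called, with SEs of 0.037 to 0.113. The lower count became 2 without control siRNA TNFα replicate 2, which added SESN2 (-0.24, adjusted p = 0.046), and without c-Jun siRNA TNFα replicate 1, which added MTHFD2 (-0.20, adjusted p = 0.027).

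**Figure D4:**
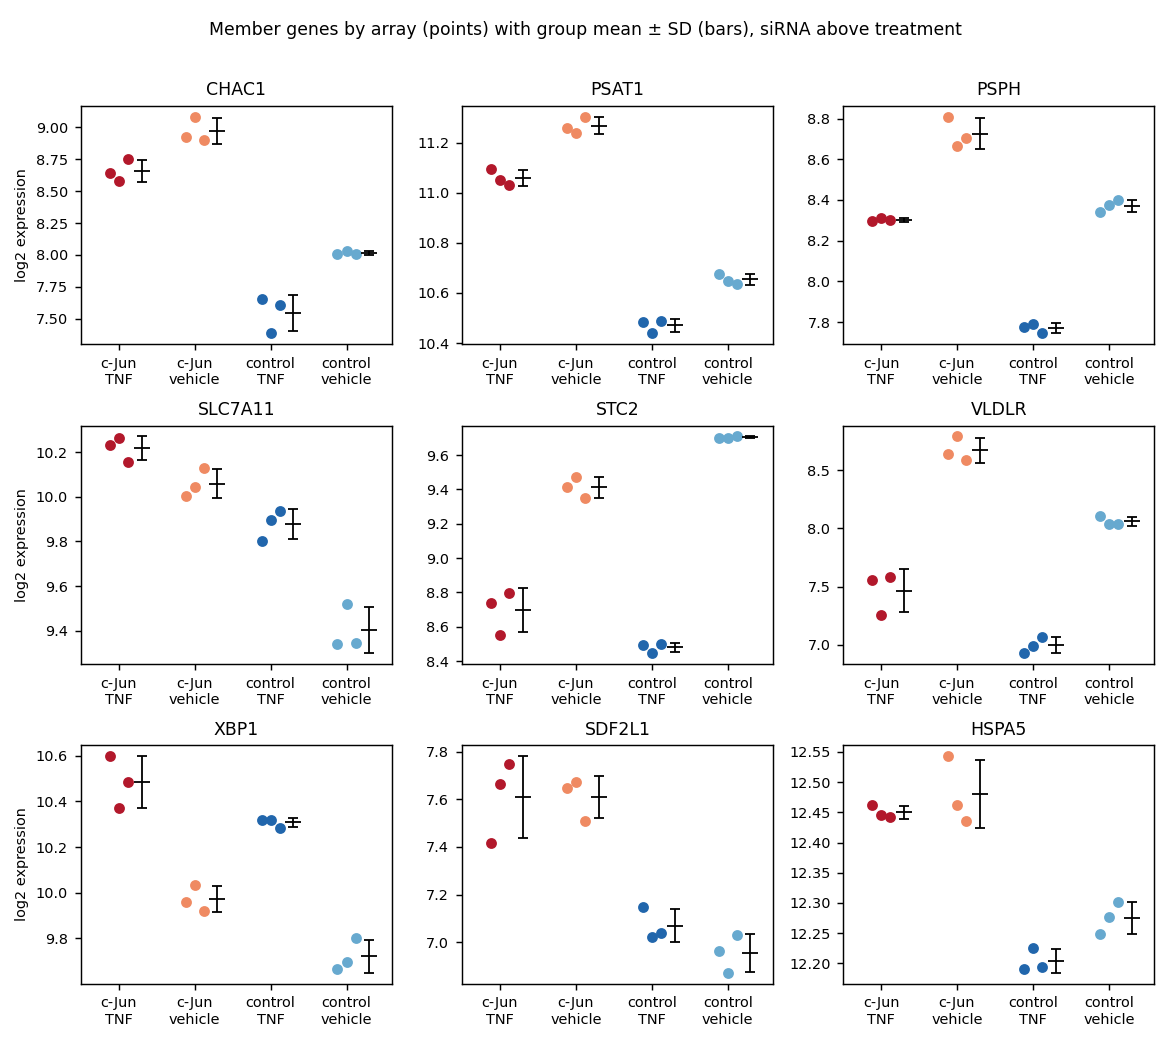
Log2 expression of the genes the results turn on, by array; each point is 1 array, grouped on the horizontal axis by siRNA and treatment, and the bars give the group mean ± SD. Vertical axes differ between panels and do not start at 0. CHAC1 and PSAT1 are higher in all c-Jun siRNA arrays than in the control siRNA arrays of the same treatment, and STC2 and VLDLR are lower in all TNFα arrays than in the vehicle arrays of the same siRNA.

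Amino acid genes and ER chaperones were set side by side, as lists of known members and with no test. Their median differences under c-Jun siRNA were 0.27 and 0.19 with TNFα and 0.23 and 0.20 with vehicle. The gap between the lists was 0.081 with TNFα and 0.022 without c-Jun siRNA TNFα replicate 2. With vehicle it was 0.031, and it was 0.078 without control siRNA replicate 2, 0.072 without c-Jun siRNA replicate 1, 0.056 without control siRNA replicate 3 and 0.017 without c-Jun siRNA replicate 2. For TNFα the medians were -0.08 for the amino acid genes and 0.00 for the chaperones under c-Jun siRNA, and -0.10 and 0.01 under control siRNA. Without c-Jun siRNA TNFα replicate 2 the gap under c-Jun siRNA was -0.056, against -0.086 with all arrays, and -0.127 without replicate 1. The mean level per array of the 14 amino acid genes was 10.17 ± 0.0087 in c-Jun siRNA TNFα arrays, 10.27 ± 0.017 in c-Jun siRNA vehicle arrays, 9.88 ± 0.0097 in control siRNA TNFα arrays and 9.96 ± 0.0095 in control siRNA vehicle arrays (SD, n = 3 each). For the 11 chaperones it was 10.43 ± 0.019, 10.40 ± 0.023, 10.20 ± 0.020 and 10.16 ± 0.018 in the same 4 groups. Under each siRNA the 3 TNFα arrays all had a lower amino acid mean than the 3 vehicle arrays, and the group mean of the chaperones was slightly higher. The comparisons share arrays, so they are not independent of each other.

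**Figure D5:**
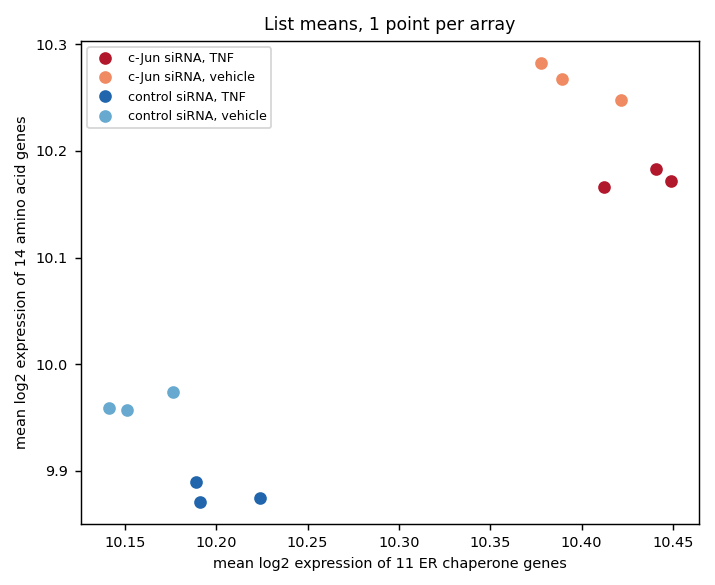
Mean log2 expression of the 14 amino acid genes (vertical axis) against that of the 11 ER chaperones (horizontal axis); each point is 1 array, coloured by group. All 6 c-Jun siRNA arrays lie above and to the right of the 6 control siRNA arrays, and within each siRNA the TNFα arrays lie below the vehicle arrays.

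Values were also read within position columns that held both groups of a comparison. The called genes of these comparisons had arrays that did not overlap between the groups. Their signs within a column were therefore fixed beforehand and tell nothing about an effect of the column. In column 7, which held 2 TNFα and 2 vehicle arrays under control siRNA, all 21 called genes kept their sign, with median differences of -0.09 for the amino acid genes and 0.02 for the chaperones. In column 9, with 2 c-Jun siRNA and 1 control siRNA array under TNFα, and in column 7, with 1 and 2, all 31 called genes kept their sign. Column 5, with 3 c-Jun siRNA and 1 control siRNA array under vehicle, kept the sign of all 30.

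Other genes of these pathways were read from lists. Of 27 further ATF4-linked genes, 14 were higher and 1 lower under c-Jun siRNA with TNFα, against 14.1% and 14.4% of all genes. With vehicle, 17 were higher and none lower, against 14.4% and 14.5% of all genes. GDF15, a stress-induced cytokine, was higher by 0.57 ± 0.056 with TNFα and 0.51 ± 0.056 with vehicle, and CBS, which makes cystathionine, by 0.49 ± 0.042 with vehicle. DDIT4, an inhibitor of mTORC1, was higher by 0.64 ± 0.035 with TNFα, and WARS1, the tryptophan tRNA ligase, was lower by -0.22 ± 0.045. With TNFα over vehicle, 3 were higher and 9 lower under c-Jun siRNA, against 11.3% and 18.3% of all genes. Under control siRNA, 8 were higher and 8 lower, against 13.8% and 21.9% of all genes. WARS1, which interferon also induces, rose by 0.55 and 0.82 and CEBPB, a partner of ATF4, by 0.37 and 0.70. DDIT4 fell by 0.40 under c-Jun siRNA and 0.92 under control siRNA, SLC43A1, a neutral amino acid transporter, by 0.52 under c-Jun siRNA, and SLC38A2, a glutamine carrier, by 0.35 under control siRNA.

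Another list of 8 genes held the eIF2α kinases, the gene of eIF2α itself (EIF2S1), the ER sensor ERN1 and the proteases MBTPS1 and MBTPS2. Of these, EIF2AK2, the double-stranded RNA sensor PKR, rose with TNFα by 0.55 ± 0.035 under c-Jun siRNA and 0.94 ± 0.035 under control siRNA. EIF2AK4, the amino acid sensor GCN2, fell by 0.20 ± 0.037 and 0.38 ± 0.037. ERN1, the sensor IRE1, rose by 0.31 and EIF2AK1, the haem sensor, fell by 0.17 under control siRNA. EIF2AK3, the ER sensor PERK, rose by 0.20 and MBTPS1, a protease that cleaves ATF6, fell by 0.10 under c-Jun siRNA. In all, 2 rose and 3 fell with TNFα under c-Jun siRNA, against 11.3% and 18.3% of all genes. Under control siRNA 3 rose and 3 fell, against 13.8% and 21.9% of all genes. Under c-Jun siRNA over control siRNA, 2 were higher and 1 lower with TNFα, against 14.1% and 14.4% of all genes. With vehicle 3 were higher and 1 lower, against 14.4% and 14.5% of all genes. EIF2AK4 (0.22) and MBTPS2 (0.12), another protease of ATF6, were higher and EIF2AK2 (-0.16) lower with TNFα. EIF2AK2 (0.23) and MBTPS1 (0.15) were higher and EIF2AK1 (-0.11) lower with vehicle.

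Of 21 further ER folding and degradation genes, 10 were higher and 5 lower under c-Jun siRNA with TNFα. Of all genes, 14.1% were higher and 14.4% lower. With vehicle, 10 were higher and 2 lower, against 14.4% and 14.5% of all genes. ERO1A, an ER oxidase, was higher by 0.60 ± 0.040 and 0.70 ± 0.040, and SIL1, the exchange factor of BiP, by 0.54 ± 0.056 and 0.42 ± 0.056. DERL3, part of the degradation machinery, was lower by -0.25 and -0.29, SEC61A1, the translocon subunit, by -0.13 with TNFα, and OS9, an ER lectin, by -0.14 with vehicle. With TNFα over vehicle 2 were higher and 3 lower under c-Jun siRNA, against 11.3% and 18.3% of all genes. Under control siRNA 4 were higher and 4 lower, against 13.8% and 21.9% of all genes. ERO1B, another ER oxidase, rose by 0.40 and 0.42, and DNAJC10, a reductase, by 0.19 and 0.17. WFS1, an ER membrane glycoprotein, fell by 0.82 ± 0.041 and 0.79 ± 0.041. ERO1A fell by 0.18 under c-Jun siRNA and SIL1 by 0.27 under control siRNA.

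A second single-symbol probe set existed for 5 of the 38 genes, and it read ATF4 differently. On it ATF4 rose with TNFα under c-Jun siRNA (0.35 ± 0.055, adjusted p = 7.4e-05) and differed by 0.03 under control siRNA (adjusted p = 0.79), and the test of that difference called it (0.32 ± 0.077, adjusted p = 0.018). The second probe set of PSPH kept all 4 calls, at -0.36 and -0.41 for TNFα and 0.37 and 0.33 for c-Jun siRNA, and that of MTHFD2 kept its 3 calls. The second probe set of SLC1A5 was called for c-Jun siRNA with vehicle alone (0.27, adjusted p = 0.030), and that of EDEM1 in no comparison.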

How the data were processed

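The deposited value table was used as log2 expression per probe set. The base of the logarithm was inferred from its range of 2.27 to 14.0 (log2), and no normalisation was added. Per the submitters' processing notes, the authors' tools included Affymetrix Expression Console 1.1 and PLIER, with no roles given. The genome build of the arrays is not given in the sources used here. Of 33297 probe sets, 19181 had 1 gene symbol, 2055 several and 12061 none here, which left 17958 genes with no filter on dim ones. limma 3.58.1 in R 4.3.3 fitted 1 mean per group to all 12 arrays with a mean-variance trend (8 residual and 9.29 prior degrees of freedom). Tests were two-sided, with Benjamini-Hochberg adjustment over all genes and a threshold of 0.05. Errors of differences are SEs of this fit and errors of means are SDs. Precision is limited by how few arrays there are, and the median SE of a difference between groups was 0.065. The code was tested on simulated data. Python 3.11.15 and pandas 2.3.3 were used for tables, and matplotlib 3.10.9 for plots.

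Groups and replicate numbers came from the labels. The 38 genes and the other lists were chosen with earlier results of these data known. All 38 are named, with JUN, NFKBIA and TNFAIP3 as checks, and from each other list up to 2 called rises and 2 called falls of largest size per comparison. Of the other lists, GPT2 and TXNDC5 had no single-symbol probe set here. Deviations from group means were correlated between same-numbered arrays of different groups, and none of 18 pairs exceeded 0.1 (-0.059 to 0.088). Differently numbered pairs ran from -0.118 to 0.158. The main fit used no replicate term. Such weak correlations over all genes cannot exclude that same-numbered arrays share a culture or day, which the labels do not state. Alternatives covered scaling, floors, dim genes, probe set averages, variance models, array weights, the compared groups alone, replicate and position blocks, averaging the possible second run and leaving out each array. Values within position columns and second probe sets were added after seeing the data.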

Additional observations from a re-analysis of the deposited data

Results flagged for a closer look

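The TNFα response differed between c-Jun siRNA and control siRNA, by the test of that difference in limma, for 2 of the 38 genes and 4 other genes of their pathways. By the same test 1.88% of all genes were higher and 3.59% lower. The differences, c-Jun siRNA minus control siRNA, were 0.51 for STC2 (adjusted p = 0.00023) and -0.32 for SLC7A11 (adjusted p = 0.012). They were 0.52 for DDIT4 (adjusted p = 2.1e-06), -0.39 for EIF2AK2 (adjusted p = 5.4e-05), -0.32 for CEBPB (adjusted p = 0.0027) and -0.27 for WARS1 (adjusted p = 0.017). STC2 and DDIT4 fell with TNFα under both siRNAs, and less under c-Jun siRNA. SLC7A11, EIF2AK2, CEBPB and WARS1 rose under both, and less under c-Jun siRNA. Groups of 3 arrays were not tested for outlying arrays.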

How the results depend on the processing

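Each comparison of groups was recomputed under 20 alternatives and the difference of responses under 25, and no called gene changed sign. Where arrays of 2 groups do not overlap, leaving out an array cannot change the sign, and other variance models leave the differences unchanged. The kept signs were thus largely fixed beforehand and say little. All alternatives kept the calls of 26 of 31 genes for c-Jun siRNA with TNFα, 23 of 30 for c-Jun siRNA with vehicle, 8 of 19 for TNFα under c-Jun siRNA, 17 of 21 for TNFα under control siRNA and 1 of 2 for the difference of responses, that of STC2. For TNFα under c-Jun siRNA, position column as a fixed block left 2 higher and 7 lower. The median difference of amino acid genes minus chaperones there was -0.12 with the second run averaged with replicate 1, against -0.09. For c-Jun siRNA with vehicle it was 0.064 with position column as a fixed block and 0.064 within position column 5, against 0.031. The lower count for c-Jun siRNA with TNFα was 1 in place of 2, PPP1R15A being lost, under the replicate block, position column as a random block, quantile normalisation, centring on array medians, a floor on low values, no mean-variance trend and array weights. For the difference of responses, the lower count was 0 with the floor and 0 with no trend, the higher count was 2 after averaging each gene's probe sets, which added ATF4, and the median difference was -0.025 with array weights, against 0.0073. The cause was not tested.

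With 1 array left out, counts of higher and lower genes and the median difference ranged as follows. For c-Jun siRNA with TNFα they were 25 to 31, 1 to 2 and 0.022 to 0.11, and with vehicle 24 to 28, 2 to 3 and 0.017 to 0.078. For TNFα under c-Jun siRNA they were 4 to 6, 12 to 13 and -0.13 to -0.056, and under control siRNA 6 to 7, 12 to 15 and -0.15 to -0.10. For the difference of responses they were 1 to 1, 1 to 2 and -0.017 to 0.029. Of all 17958 genes, 2224 to 2380 were higher and 2216 to 2416 lower for c-Jun siRNA with TNFα. With vehicle 2236 to 2383 were higher and 2189 to 2387 lower. TNFα gave 1760 to 1932 higher and 2866 to 3031 lower under c-Jun siRNA, and 2249 to 2305 and 3480 to 3596 under control siRNA. The difference of responses gave 241 to 369 higher and 527 to 640 lower. The number of arrays and signal over background limit what small differences can show.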
